A study of Mus musculus with 8 samples.

Results

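The genes that neighbour H2afy on mouse chromosome 13 were examined in lymphoid progenitors biased towards the B cell fate, from H2afy-/- and H2afy+/+ mice. They were chosen by position alone: every protein-coding gene whose start lies between 46 and 66 Mb of chromosome 13 in NCBIM37, the same assembly as mm9, with H2afy itself left out. The rule gave 195 genes, all of them present in the table of 37991 gene IDs. The comparison asks whether transcripts of the surrounding chromosome differ along with the knockout allele.

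RNA was sequenced from 4 pools of H2afy-/- mice (H2afy_KO 1 to 4) and 4 pools of H2afy+/+ mice (H2afy_WT 1 to 4). Mice of both groups were 5 to 12 weeks old, and a pool held 5000 to 15000 progenitors of 2 to 3 mice, sorted from bone marrow enriched for Kit-positive cells. The strain, how the allele was made, which part of the gene it removes and whether pools share mice are not stated in the labels. P-values therefore measure the spread between these pools.

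A gene targeted in embryonic stem cells stays linked to the DNA around it when mice are bred to another strain. Even after many generations of backcrossing, a stretch of the original chromosome usually remains on each side of the allele, and genes in it can differ between knockout and wild-type animals through their own sequence. A deletion or an inserted cassette can also alter transcription of close neighbours directly. H2afy encodes macroH2A1, a histone variant with a large non-histone domain that is found in repressed and in some active chromatin, and chromatin proteins can act on genes anywhere in the genome. The counts cannot tell these sources apart, because every H2afy_KO pool carries the allele together with the chromosome around it. No sequence variants were analysed here, so the origin of the flanking chromosome was not tested.

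The pools held 21330088 to 29029765 gene counts each. All 9 markers listed for progenitors of the B lineage were detected, Kit, Flt3, Il7r and Dntt among them, and their summed level was 6787 to 8497 CPM (counts scaled to a common library size) in H2afy_KO and 8546 to 10479 CPM in H2afy_WT, without overlap. Dntt made up much of that sum, at 3298 to 5067 and 5010 to 6235 CPM. Flt3, Ly6d and Cd93 had log2 fold changes of 0.06, 0.36 and -0.05 (H2afy_KO over H2afy_WT). Those of Rag1, Ebf1, Cd79a, Dntt, Il7r and Kit were -1.65, -1.41, -0.93, -0.50, -0.32 and -0.26. None of the 9 passed adjustment in the edgeR quasi-likelihood test, with adjusted p from 0.475 (Rag1) to 0.966 (Cd93). In H2afy_KO and H2afy_WT, Rag1 was at 24.1 to 93.5 and 116 to 320 CPM, and Ebf1 at 65 to 218 and 252 to 640 CPM. Immunoglobulin genes, typical of plasma cells, took 0.402, 10.0, 39.0 and 33.4% of the counts across H2afy_KO pools 1 to 4, and 3.47, 0.948, 19.5 and 12.9% across H2afy_WT pools 1 to 4. The 5 T lineage markers summed to 229 to 416 CPM in H2afy_KO and 353 to 377 CPM in H2afy_WT. Nearly all of that was Lck, at 220 to 410 and 348 to 367 CPM. Cd3e, which defines T cells, had no counts in 2 H2afy_KO pools and 1 H2afy_WT pool. In the same order of groups, the sums were 113 to 19842 and 397 to 8848 CPM for 5 plasma cell markers, 1044 to 1455 and 821 to 1169 CPM for 6 plasmacytoid dendritic markers, and 717 to 3494 and 1017 to 4737 CPM for 6 granulocyte and monocyte markers. They were 3.08 to 11.7 and 2.76 to 44.5 CPM for 5 erythroid and megakaryocyte markers. The part of these other transcripts in the results below was not tested. In bulk samples, fewer cells of a type and less RNA per cell cannot be told apart.

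Ctla2a and Ctla2b are near copies in the same gene cluster, with the placental gene Tpbpb between them, and encode small inhibitors of cysteine proteases related to the propeptide of cathepsins. Their RefSeq promoters are shown because the values of both genes lay below those of H2afy_WT in every H2afy_KO pool. The 250 bases before each start (GRCm38.p6, minus strand, chr13:60936626-60936875 for Ctla2a and chr13:60897448-60897697 for Ctla2b) were identical at 208 of 228 aligned bases, or 91.2%. Capitals mark bases that differ or have no aligned partner, and the last line is the longest coding stretch of 88 bases that both genes share exactly (GENCODE M1).
Ctla2a: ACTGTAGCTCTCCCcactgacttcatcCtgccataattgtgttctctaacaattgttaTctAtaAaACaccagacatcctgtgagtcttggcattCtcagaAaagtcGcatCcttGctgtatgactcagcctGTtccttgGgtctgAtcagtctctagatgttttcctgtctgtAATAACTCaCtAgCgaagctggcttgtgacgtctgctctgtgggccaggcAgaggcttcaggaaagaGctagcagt
Ctla2b: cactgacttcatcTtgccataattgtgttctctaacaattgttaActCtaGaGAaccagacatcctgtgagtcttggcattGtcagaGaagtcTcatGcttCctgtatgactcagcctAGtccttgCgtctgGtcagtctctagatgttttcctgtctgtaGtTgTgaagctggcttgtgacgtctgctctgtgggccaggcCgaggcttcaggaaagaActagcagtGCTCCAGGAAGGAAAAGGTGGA
Ctla2a and Ctla2b, coding: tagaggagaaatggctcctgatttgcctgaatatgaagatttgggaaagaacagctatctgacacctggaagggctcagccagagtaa
Their coding sequences, of 414 bases in Ctla2a and 342 in Ctla2b, were identical at 329 of 342 aligned bases, or 96.2%. The bases of Ctla2a without an aligned partner are not part of that share. Of the 50-base stretches of Ctla2a transcripts 7.1% also occur in Ctla2b, and 8.22% of those of Ctla2b occur in Ctla2a, so a small part of their reads could not be assigned by sequence.

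H2afy was read first, as a check of the labels. It stood at 1953, 1744, 1423 and 1517 CPM across the H2afy_KO pools, against 2455, 2567, 2063 and 1981 CPM across the H2afy_WT pools, each in the order 1 to 4. Every H2afy_KO pool was below every H2afy_WT pool, yet the means, 1659 ± 238 and 2267 ± 288 CPM (SD, n = 4), left 73.2% of the wild-type transcript level. In the edgeR quasi-likelihood test this was a log2 fold change (H2afy_KO over H2afy_WT throughout) of -0.45 (SE 0.15), at an adjusted p of 0.504. Counts per gene do not show which part of the transcript remained, so they do not check the deletion itself.

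Many of the flanking genes were silent or nearly so in these progenitors. Of the 195 genes, 21 had no count in any pool, and 41 had fewer than 10 counts in all 8 pools together. Mean levels were over 100 CPM for 15 genes, 10 to 100 CPM for 59, 1 to 10 CPM for 31 and 1 CPM or less, but above 0, for 69. The filter on low counts left 115 genes for testing, and the most abundant gene it removed, Gm17352, averaged 0.291 CPM. Il9, a cytokine gene of T cells, had no counts, and the chemokine gene Cxcl14 had counts in 1 pool only. Gm17253, a gene model inside H2afy on the opposite strand, had none either. Per kb of exon the most abundant genes were Hnrnpk, Tmed9, Nop16, Dek and Higd2a. Hnrnpk, which encodes an RNA-binding protein of splicing and transcription, had 533 ± 42.7 CPM per kb in H2afy_KO and 572 ± 16.9 CPM per kb in H2afy_WT (SD, n = 4). Its level is uncertain, because 30% of the 50-base stretches of its transcripts also occur in Gm7964.

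No flanking gene passed the edgeR quasi-likelihood test after Benjamini-Hochberg adjustment. The count was 0 of 115, as it was 0 of 13722 (0%) over all genes tested. DESeq2 called 3 flanking genes at an adjusted p under 0.05, Cplx2, Ddx41 and Ctla2a, all lower in H2afy_KO and none higher, where it called 126 of 14382 genes (0.876%) in all, 0.542% lower and 0.334% higher. DESeq2 called 1 to 5 flanking genes when each pool was left out in turn, where it called 0.213 to 1.37% of all genes. The lowest count was without H2afy_WT 1 (0.213% of all genes) and the highest without H2afy_KO 4 (0.648%), and Cplx2 was called in all 8 of these fits. Without H2afy_KO 3 and 4, the immunoglobulin-rich H2afy_KO pools, which leaves 2 against 4 pools, DESeq2 called neither Cplx2 nor Ddx41 nor Ctla2a, and called 2 other flanking genes, 1110018J18Rik and Zfp367 (0.863% of all genes). The log2 fold changes in edgeR without those pools were -2.88 for Cplx2, -0.71 for Ddx41 and -0.71 for Ctla2a, against -3.22, -0.66 and -0.80 with all pools.

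At an unadjusted p under 0.05 in edgeR there were 13 of 115 flanking genes (11.3%), against 1040 of 13722 genes (7.58%). The flanking genes are all protein-coding, and over all protein-coding genes tested it was 972 of 12273 (7.92%). Of the 13, 8 were lower in H2afy_KO and 5 were higher, where 3.69% and 3.88% of all genes met the same threshold in those directions. In 8 of the 115 tested flanking genes (6.96%) the values of the 4 H2afy_KO pools and the 4 H2afy_WT pools did not overlap. Over all genes tested this held for 621 (4.53%), and over the protein-coding genes tested for 570 (4.64%). The groups were apart with H2afy_KO lower in 5 flanking genes and higher in 3, where 2.35% and 2.18% of all genes tested were. Another measure was whether the H2afy_KO pool lay on the same side of the same-numbered H2afy_WT pool in all 4 pairs: 17 flanking genes were lower and 13 higher in every pair, together 26.1% of those tested. Over all genes tested it was 21%, with 10.9% lower and 10.1% higher. The flanking shares were above the background by a few genes in each of these measures, and no test of that difference was made.

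The typical flanking gene differed little between the groups. The median log2 fold change was -0.06, with 65 genes negative and 50 positive, and 0.00 over all genes. The median absolute log2 fold change was 0.21, against 0.19 over all genes and 0.18 over all protein-coding genes tested. For the 357 tested protein-coding genes elsewhere on chromosome 13 it was 0.16. Of the 115 genes, 87 had a log2 fold change within 0.5 of 0 and 6 were beyond 1, with a range of -3.22 to 1.62.

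**Figure D1:**
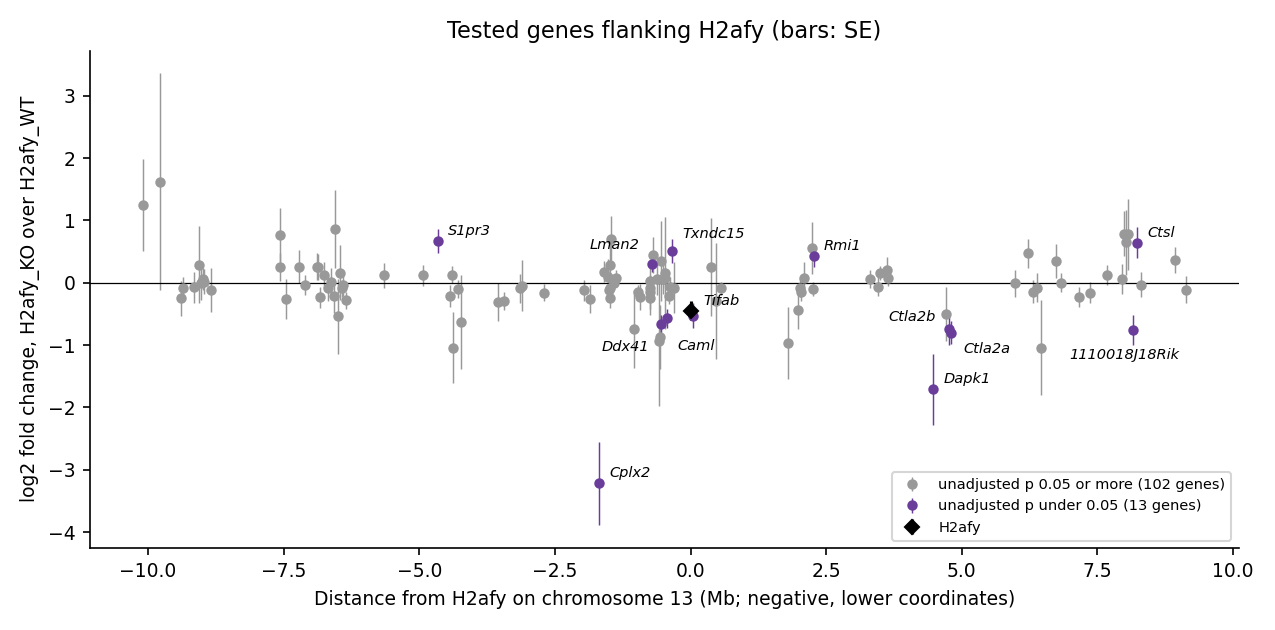
Log2 fold change of the 115 tested flanking genes against their distance from H2afy in Mb, with bars for the SE; purple points have an unadjusted p under 0.05 in edgeR and the black diamond is H2afy. Most points lie close to 0 at all distances, and Cplx2 stands alone at -3.22.

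Of the 115 tested flanking genes, Cplx2 had the largest absolute log2 fold change. The gene encodes complexin 2, a SNARE-binding protein known for controlling vesicle release in neurons and also found in antibody-secreting cells. Cplx2 (ENSMUSG00000025867, chromosome 13, 54472713 to 54485278, plus strand) lies 1.69 Mb from H2afy. It gave 0.635, 5.31, 1.4 and 1.98 CPM across H2afy_KO pools 1 to 4, and 27, 32.2, 17.5 and 10 CPM across H2afy_WT pools 1 to 4. The highest H2afy_KO pool was below the lowest H2afy_WT pool, and the counts behind these values were 20 to 122 and 267 to 854 per pool. The means were 2.33 ± 2.06 and 21.7 ± 9.87 CPM (SD, n = 4), 9.31-fold lower in H2afy_KO. On the log2 scale the fold change was -3.22 (SE 0.67), at an adjusted p of 0.4 in the edgeR quasi-likelihood test and 0.00164 in DESeq2. The pools with the least immunoglobulin RNA, H2afy_KO 1 and H2afy_WT 2 at 0.402 and 0.948% of counts, had the lowest and the highest Cplx2 levels. Within H2afy_WT, the pools 3 and 4, with more immunoglobulin RNA, had less Cplx2 than pools 1 and 2. Within H2afy_KO, the pools 3 and 4, with the most immunoglobulin RNA, had less Cplx2 than pool 2 and more than pool 1. A relation between Cplx2 and immunoglobulin RNA was not tested. The log2 fold change was -4.03 to -2.89 with each pool left out. Only 1.32% of the 50-base stretches of Cplx2 transcripts also occur in another protein-coding gene.

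Other genes expressed mainly in neurons or development were mostly too low to test. Of 26 flanking genes in that list, 8 were tested and 6 of them had negative log2 fold changes, with a median of -0.42 (0.00 over all genes). Cplx2 was the only tested gene of the list at an unadjusted p under 0.05 in edgeR, which 7.58% of all genes tested had. Klhl3, an adaptor of a ubiquitin ligase, averaged 1.04 ± 0.754 and 2.06 ± 1.18 CPM (SD, n = 4) in H2afy_KO and H2afy_WT, with overlapping pools.

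Among the 59 flanking genes that had counts but were too low for the test, 2 had groups that did not overlap, both lower in H2afy_KO, against 1.27% of all genes with counts that were not tested. Both are named after their values were seen. Unc5a, of the same neuronal list, encodes a receptor for the guidance molecule netrin and lies 1.07 Mb from H2afy (55050772 to 55107379, plus strand). It had 0 counts in all 4 H2afy_KO pools and 6, 4, 14 and 8 counts in H2afy_WT 1 to 4. A total of 0 allows up to 3 counts, or 0.0316 CPM over the H2afy_KO pools, so Unc5a was at least 9.47-fold lower than the 0.3 CPM over the H2afy_WT pools, by counting error alone. In edgeR with no filter on low counts its adjusted p was 0.225, and DESeq2 gave it no adjusted p. Its end overlaps Hk3 on the opposite strand. 4930458L03Rik had 1 count in H2afy_KO 4 and none in the other H2afy_KO pools, and 2, 2, 5 and 4 counts in H2afy_WT 1 to 4.

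Within 1 Mb of H2afy, Ddx41 had the smallest adjusted p. It encodes a DEAD-box RNA helicase that takes part in splicing and in the sensing of DNA, and that is mutated in inherited predisposition to myeloid leukaemia. Ddx41 (ENSMUSG00000021494, chromosome 13, 55631771 to 55638019, minus strand) stood at 56.8, 51.6, 53.5 and 64.2 CPM across the H2afy_KO pools, against 82.1, 107, 95.6 and 73.2 CPM across the H2afy_WT pools, each in the order 1 to 4. The groups did not overlap, and the means were 56.5 ± 5.56 and 89.4 ± 14.8 CPM (SD, n = 4). The fitted log2 fold change, -0.66 (SE 0.14), had an adjusted p of 0.36 in the edgeR quasi-likelihood test and 0.0203 in DESeq2.

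Ddx41 was the only one of the 28 flanking genes with chromatin, RNA or nuclear functions at an unadjusted p under 0.05. Over all genes tested the share was 7.58%. All 28 of the list were tested, with 15 negative and 13 positive and a median log2 fold change of -0.03. Ddx46, a helicase of the spliceosome, had means of 170 CPM in H2afy_KO and 197 CPM in H2afy_WT. Dek, a chromatin protein of proliferating cells, had 260 ± 60.6 and 256 ± 50.7 CPM (SD, n = 4). Nsd1, a histone methyltransferase, had 211 ± 40.9 and 223 ± 40.5 CPM. For these 3 genes the log2 fold changes were -0.22, 0.02 and -0.08.

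Ctla2a gave 23.1, 24.5, 16.6 and 25.8 CPM across H2afy_KO pools 1 to 4, and 39.9, 31.5, 40.7 and 44.9 CPM across H2afy_WT pools 1 to 4. Ctla2b, its near copy, had 6.98, 4.52, 3.34 and 5.7 CPM and 7.29, 9.13, 8.04 and 9.92 CPM in the same order. In both genes all H2afy_KO pools were below all H2afy_WT pools, and H2afy_KO 3 was the lowest. The means of Ctla2a (ENSMUSG00000044258, 61035516 to 61037986, minus strand, 4.8 Mb from H2afy) were 22.5 ± 4.11 and 39.3 ± 5.64 CPM (SD, n = 4). This was a log2 fold change of -0.80 (SE 0.18), and the adjusted p was 0.363 in the edgeR quasi-likelihood test and 0.011 in DESeq2. For Ctla2b (ENSMUSG00000074874, 60996712 to 60998808, minus strand) the log2 fold change was -0.74 (SE 0.26), at adjusted p of 0.519 in edgeR and 0.202 in DESeq2. How reads that fit both genes were counted is not stated in the labels.

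Ctsl, which encodes the lysosomal protease cathepsin L, differed in the opposite direction. It stood at 91, 98.8, 111 and 96 CPM across the H2afy_KO pools, against 73.8, 31.8, 86.5 and 62.1 CPM across the H2afy_WT pools, each in the order 1 to 4. The groups did not overlap, with means of 99.1 ± 8.43 and 63.5 ± 23.4 CPM (SD, n = 4), and H2afy_WT 2 was far below the others. On the log2 scale the fold change was 0.64 (SE 0.25), at an adjusted p of 0.608 in edgeR and 0.305 in DESeq2. Of the 14 genes listed as cathepsins and CTLA2 inhibitors, most of them a cluster known from the placenta, these 3 were tested and the other 11 were too low.

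**Figure D2:**
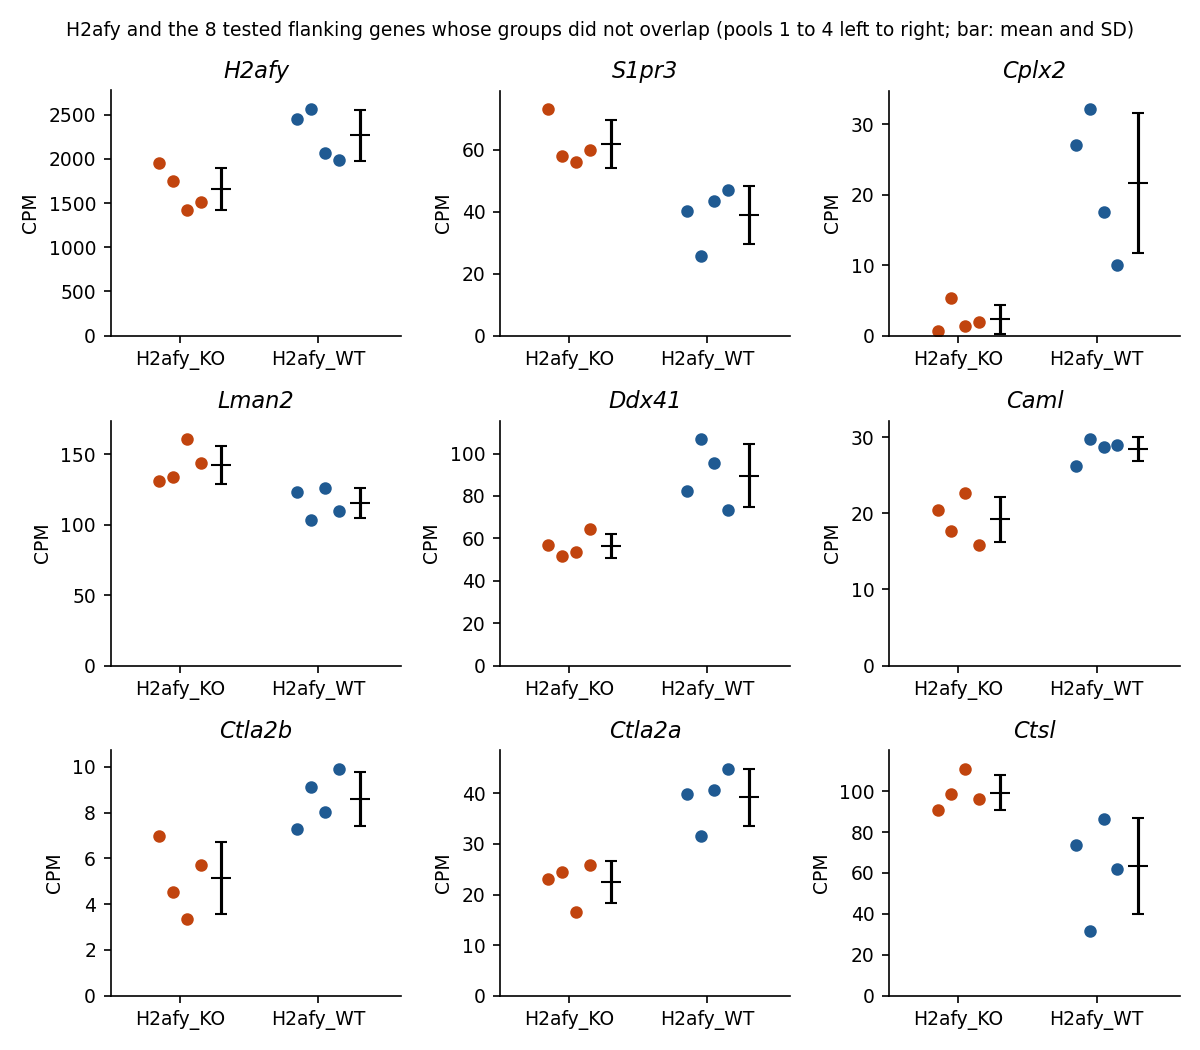
CPM of H2afy and of the 8 tested flanking genes whose groups did not overlap, with a point for each pool (H2afy_KO orange, H2afy_WT blue, pools 1 to 4 from left to right) and the mean with SD beside them. Cplx2, Ddx41, Caml, Ctla2b and Ctla2a are lower in all H2afy_KO pools, and S1pr3, Lman2 and Ctsl are higher.

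Among 23 flanking genes with immune or lymphoid functions, 20 were tested. At an unadjusted p under 0.05 in edgeR, 3 were lower (Caml, Tifab and Dapk1) and 1 was higher (S1pr3), where 3.69% and 3.88% of all genes tested were. The median log2 fold change of the 20 was -0.10, with 13 negative and 7 positive. Caml encodes a membrane protein that inserts tail-anchored proteins into the endoplasmic reticulum and is needed for lymphocyte survival. It gave 20.5, 17.7, 22.7 and 15.9 CPM across H2afy_KO pools 1 to 4, and 26.2, 29.8, 28.7 and 29 CPM across H2afy_WT pools 1 to 4. The groups did not overlap, and the means were 19.2 ± 3.04 and 28.4 ± 1.58 CPM (SD, n = 4). The fitted log2 fold change, -0.57 (SE 0.15), had an adjusted p of 0.426 in edgeR and 0.0737 in DESeq2.

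Tifab, an inhibitor of TRAF6 signalling, is the tested gene nearest to H2afy, with a gap of 37.3 kb (56275064 to 56280246, minus strand). It stood at 125, 160, 97.5 and 170 CPM across the H2afy_KO pools, against 188, 256, 157 and 198 CPM across the H2afy_WT pools, each in the order 1 to 4. The groups overlapped, because H2afy_KO 2 and 4 were above H2afy_WT 3, but H2afy_KO was the lower in 4 of 4 same-numbered pairs. The means were 138 ± 33.4 and 200 ± 41.5 CPM (SD, n = 4). This was a log2 fold change of -0.53 (SE 0.20), and the adjusted p was 0.566 in edgeR and 0.319 in DESeq2.

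S1pr3, a receptor for the lipid sphingosine 1-phosphate, gave 73.3, 58.1, 56.2 and 59.9 CPM across H2afy_KO pools 1 to 4, and 40.2, 25.6, 43.4 and 46.9 CPM across H2afy_WT pools 1 to 4. All H2afy_KO pools were above all H2afy_WT pools. The means were 61.9 ± 7.77 and 39 ± 9.36 CPM (SD, n = 4), and the log2 fold change was 0.67 (SE 0.19). Its adjusted p was 0.462 in edgeR and 0.0972 in DESeq2. It lies 4.66 Mb from H2afy on the side of lower coordinates.

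Dapk1, a death-associated protein kinase, was low in both groups. It stood at 0.73, 1.39, 0.667 and 2.66 CPM across the H2afy_KO pools, against 2.4, 7.02, 1.84 and 6.69 CPM across the H2afy_WT pools, each in the order 1 to 4. Pools 2 and 4 were the higher in both groups, and the groups overlapped through H2afy_KO 4. On the log2 scale the fold change was -1.71 (SE 0.57), at an adjusted p of 0.505 in edgeR and 0.0946 in DESeq2. Hk3, a hexokinase of myeloid cells, and Gadd45g, a stress response gene, had log2 fold changes of -0.74 (SE 0.62) and -0.63 (SE 0.75), with wide errors and unadjusted p above 0.05. Sykb (the tyrosine kinase Syk of B cell receptor signalling) averaged 178 ± 15.1 and 217 ± 42.8 CPM (SD, n = 4) in H2afy_KO and H2afy_WT, a log2 fold change of -0.29. Sema4d, a semaphorin of lymphocytes, and Nfil3, a transcription factor of lymphoid cells, had log2 fold changes of -0.10 and -0.05.

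In the vesicle, Golgi, mitochondria and metabolism list, 24 of 27 genes were tested, with a median log2 fold change of 0.05. At an unadjusted p under 0.05 none was lower and 3 were higher, where 3.69% and 3.88% of all genes tested were. The 3 were Lman2, a lectin that carries glycoproteins out of the endoplasmic reticulum, Txndc15, a thioredoxin domain protein, and Rmi1. The known role of Rmi1 is in the BLM complex that resolves DNA junctions rather than in vesicles. Lman2 gave 131, 134, 161 and 144 CPM across H2afy_KO pools 1 to 4, and 123, 103, 126 and 110 CPM across H2afy_WT pools 1 to 4, without overlap. The fitted log2 fold change, 0.30 (SE 0.12), had an adjusted p of 0.604 in edgeR. Txndc15, 347 kb from H2afy, had 8.29, 9.65, 11.8 and 10.2 CPM and 6.58, 8.53, 6.36 and 6.54 CPM in the same order, and the groups overlapped through H2afy_WT 2. This was a log2 fold change of 0.51 (SE 0.20), and the adjusted p was 0.6 in edgeR. Rmi1 had 29.1, 35.2, 23.6 and 24.4 CPM and 23, 16.1, 20.6 and 23.8 CPM in that order, a log2 fold change of 0.43 (SE 0.18) at an adjusted p of 0.629 in edgeR. The groups overlapped through H2afy_WT 4. Rmi1 overlaps Hnrnpk on the opposite strand, and since the library kit does not mark strand, reads of that overlap could belong to either gene.

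Tmed9, a cargo receptor of the early secretory pathway in the same list, varied between pools far more than between groups. It stood at 304, 59.1, 397 and 394 CPM across the H2afy_KO pools, against 416, 35.5, 136 and 445 CPM across the H2afy_WT pools, each in the order 1 to 4. The pools numbered 2 were the lowest of both groups. The log2 fold change was 0.16 (SE 0.90). It was -0.49 without H2afy_KO 3 and 4.

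The 7 flanking zinc finger genes had no member at an unadjusted p under 0.05, against 7.58% of all genes tested. Of the 7, 5 were negative and 2 positive, with a median log2 fold change of -0.08. Zfp367 had the largest value of them, with 259, 398, 232 and 138 CPM across H2afy_KO pools 1 to 4, and 176, 132, 204 and 82.3 CPM across H2afy_WT pools 1 to 4. The groups overlapped, but H2afy_KO was the higher in 4 of 4 same-numbered pairs. On the log2 scale the fold change was 0.79 (SE 0.36), at an adjusted p of 0.674 in edgeR. Of the 70 flanking genes in none of the lists, 25 were tested and 1, 1110018J18Rik (Prxl2c in RefSeq), had an unadjusted p under 0.05. It gave 17.9, 15.8, 17.3 and 29.2 CPM across H2afy_KO pools 1 to 4, and 26.7, 37.9, 25.9 and 45 CPM across H2afy_WT pools 1 to 4, and the groups overlapped through H2afy_KO 4. The fitted log2 fold change, -0.76 (SE 0.24), had an adjusted p of 0.489 in edgeR and 0.149 in DESeq2.

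**Figure D3:**
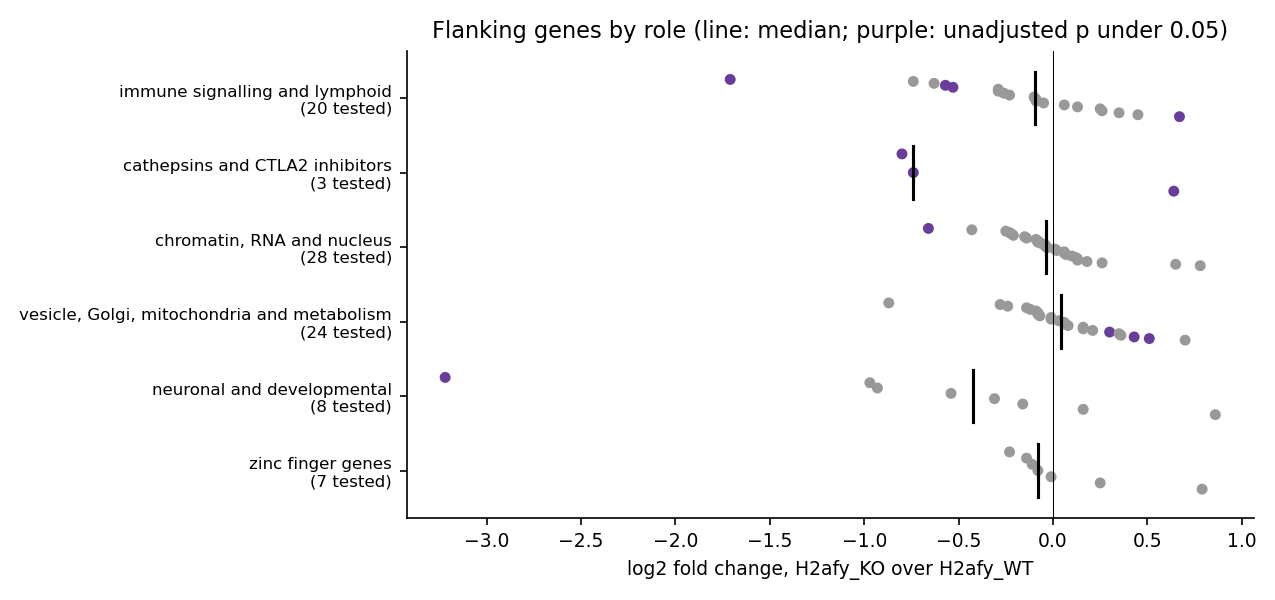
Log2 fold change of the tested flanking genes in each of the 6 lists of roles, with a point for each gene and a black line at the median; purple points have an unadjusted p under 0.05 in edgeR. The medians of the immune, chromatin, vesicle and zinc finger lists lie between -0.10 and 0.05. That of the cathepsin and CTLA2 list, with 3 tested genes, is -0.74. The median of the neuronal list, with 8 tested genes, is -0.42, and Cplx2 is at its far left.

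The share of genes at an unadjusted p under 0.05 is given here by distance from the gene body of H2afy, with no test between distances. Over all genes tested, 7.58% had an unadjusted p under 0.05 in edgeR, 3.69% lower and 3.88% higher. Within 1 Mb of H2afy it was 5 of 25 tested genes (20%), 3 lower and 2 higher, and the median log2 fold change was -0.08. From 1 to 2 Mb it was 1 of 15 (6.67%), from 2 to 5 Mb 5 of 27 (18.5%) and beyond 5 Mb 2 of 48 (4.17%). The shares did not decline steadily with distance, and each distance band rests on few genes. On the side of lower coordinates 6 of 75 genes met the threshold (8%), and on the side of higher coordinates 7 of 40 (17.5%). The median log2 fold changes of the sides were -0.07 and -0.04.

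Closest to H2afy, several expressed neighbours had much the same level in both groups. Smad5, a transducer of BMP signals, had means of 58.3 CPM in H2afy_KO and 62.3 CPM in H2afy_WT, a log2 fold change of -0.09. The log2 fold change was -0.07 for B230219D22Rik and -0.22 for Ddx46. Other genes among the 5 nearest tested on each side were low. Pcbd2 at -0.08 (SE 0.41) averaged 1.06 and 1.12 CPM. Klhl3, which lies as far as 1.79 Mb from H2afy, was at -0.97 (SE 0.58). Fbxl21 at 0.25 averaged 0.465 and 0.393 CPM, and Tgfbi at -0.29 averaged 2.43 and 2.95 CPM. The signs of Pcbd2, B230219D22Rik, Fbxl21 and Tgfbi depended on the pools used. Of the 10 nearest tested genes, 5 on each side, Caml, Txndc15 and Tifab had an unadjusted p under 0.05, which 7.58% of all genes tested had.

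The values on each side of the borders at 46 and 66 Mb are a description with no test. Just inside the lower border, 5033430I15Rik, Gm1574 and C78339 had log2 fold changes of 1.25 (SE 0.74), 1.62 (SE 1.74) and -0.25, and just outside it Atxn1, Gmpr and Mylip had 0.25, 0.21 and -0.05. Just inside the upper border, Zfp369, Hiatl1 and Cdk20 had -0.11, 0.36 and -0.03, and just outside it Gm5451, Uqcrb and Gm10767 had -0.30, 0.03 and -0.06. In the next 5 Mb below the window 1 of 20 tested genes (5%) had an unadjusted p under 0.05. In the 5 Mb above it the count was 9 of 39 (23.1%), 8 lower and 1 higher, with a median log2 fold change of -0.20. On the rest of chromosome 13 as a whole it was 32 of 357 (8.96%). Over all genes tested the share was 7.58%, with 3.69% lower and 3.88% higher.

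**Figure D4:**
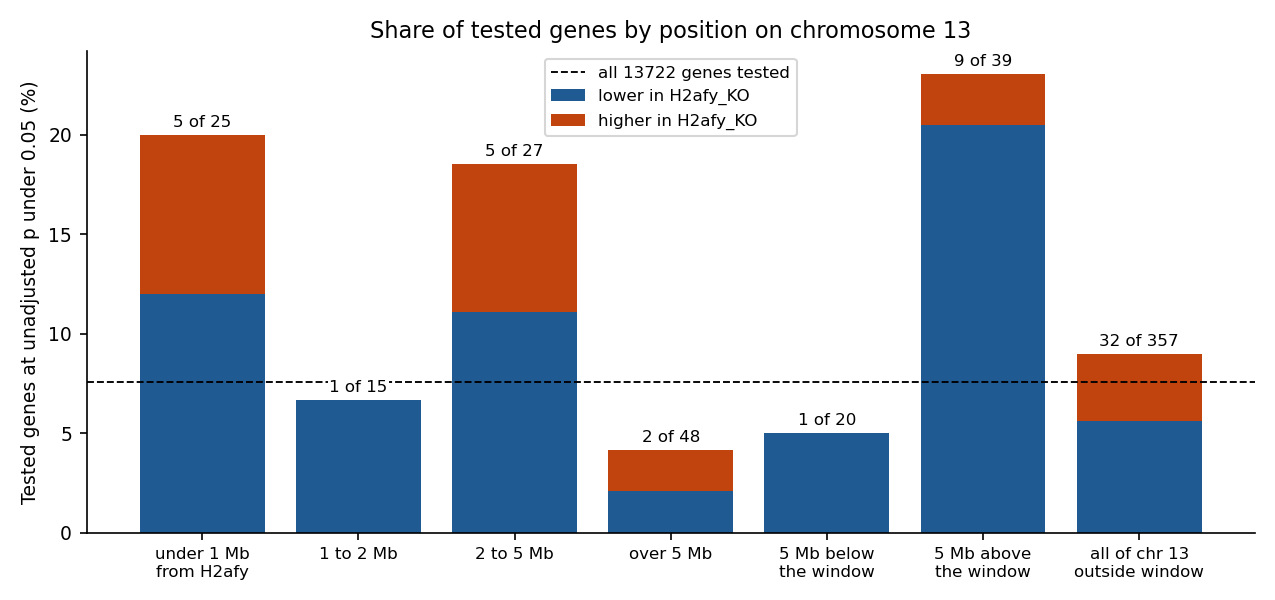
Percentage of tested genes with an unadjusted p under 0.05 in edgeR by distance from H2afy, in the 5 Mb on each side of the window and on chromosome 13 outside the window; blue is lower and orange higher in H2afy_KO, and the dashed line is the share of all 13722 genes. The share is 20% within 1 Mb, 4.17% beyond 5 Mb and 23.1% in the 5 Mb above the window.

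The stretch above the window, from 66 to 71 Mb, holds 24 genes with a Zfp symbol, of which 22 were tested. In 7 of the 22 (31.8%) the unadjusted p was under 0.05, 6 lower and 1 higher, where 3.69% and 3.88% of all genes tested were. The median log2 fold change of the 22 was -0.26. Some of them, such as Zfp58 and Zfp87, overlap on the same strand, and shared 50-base stretches were not examined for them. The genes named here were chosen after their values were seen. Fastkd3, a mitochondrial RNA regulator and not a zinc finger gene, stood at 34.4, 29.9, 27.6 and 34.3 CPM across the H2afy_KO pools, against 51.8, 58.2, 50.5 and 48.4 CPM across the H2afy_WT pools, each in the order 1 to 4. The groups did not overlap, and its log2 fold change came to -0.73 (SE 0.13), at an adjusted p of 0.175 in edgeR and 0.00108 in DESeq2. Zfp874a had 8.7, 8.18, 10.7 and 11.8 CPM and 17.1, 13.1, 13.6 and 19.8 CPM in the same order, without overlap and with a log2 fold change of -0.69 (SE 0.20). Zfp459 was higher in all H2afy_KO pools, at 4.13 to 4.73 CPM against 2.63 to 3.39 CPM.

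The calls moved with the settings more than the sizes of the differences did. The log2 fold change of Cplx2 ranged from -4.03 to -2.88 over 17 alternative fits, and its sign was negative in each. With each pool left out in turn, the log2 fold change was -0.75 to -0.57 for Ddx41, -0.90 to -0.68 for Ctla2a, -0.65 to -0.48 for Caml, -0.65 to -0.39 for Tifab and 0.50 to 0.76 for S1pr3. With the replicate number as a block, 17 of 115 flanking genes had an unadjusted p under 0.05, against 12% of all genes, and none passed after adjustment in edgeR, where 15 of 13722 genes (0.109%) did, 0.0802% lower and 0.0292% higher. DESeq2 with that block called 10 flanking genes, 7 lower and 3 higher, while it called 3.24% of all genes. The 7 were 1110018J18Rik, Caml, Cplx2, Ctla2a, Dapk1, Ddx41 and Tifab, and the 3 were Ctsl, S1pr3 and Zfp367.

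**Figure D5:**
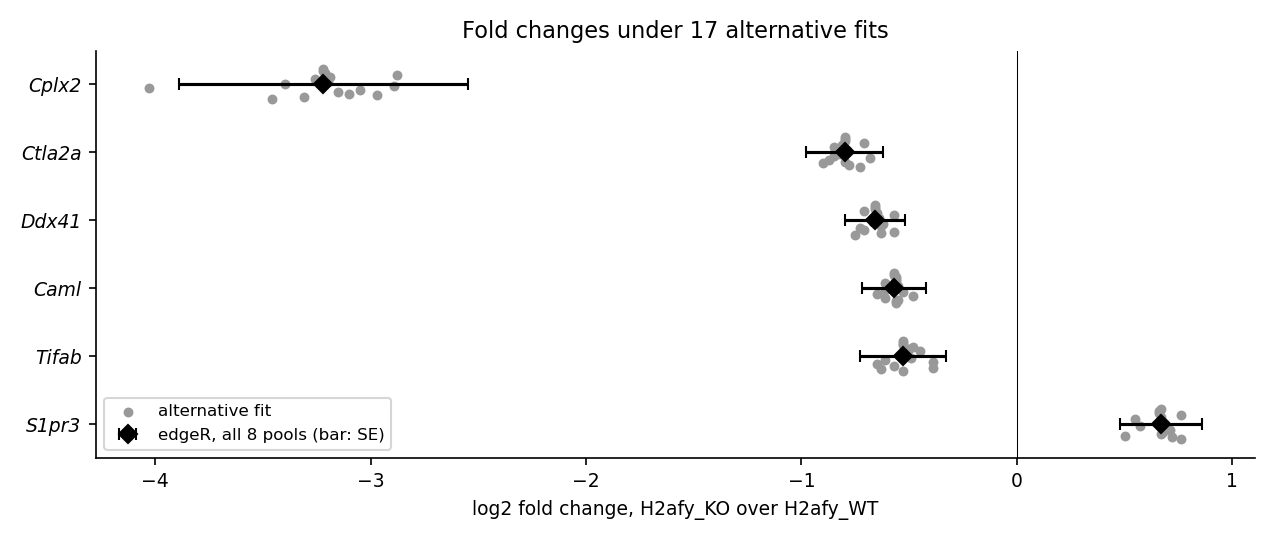
Log2 fold change of 6 flanking genes from edgeR with all 8 pools (black diamond, bar for the SE) and from 17 alternative fits (grey points). All points of Cplx2, Ctla2a, Ddx41, Caml and Tifab lie below 0 and all points of S1pr3 lie above it.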

How the data were processed

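RNA was measured in 4 H2afy_KO and 4 H2afy_WT pools of sorted progenitors. The table deposited by the authors holds raw read counts, as whole numbers, for each Ensembl gene. The submitters' processing notes name HISAT2 2.0.6 and mm9 for the alignment of single 50-base reads. Which program counted reads per gene, with what strand setting and gene models, was not given in the sources used here, and the cDNA kit does not mark strand. GENCODE M1 named 37205 of 37991 gene IDs and gave positions and biotypes, and 786 IDs had no match. No pools were duplicates, since over 28 pairs the chi-square of their counts per degree of freedom was at least 92.2.

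Groups were compared with edgeR 4.0.16 in R 4.3.3 (quasi-likelihood test, robust, TMM scaling, filterByExpr at a minimum count of 10). P-values were adjusted by Benjamini-Hochberg over the 13722 genes tested and read at 0.05. The common biological coefficient of variation came to 0.39. CPM use TMM-scaled library sizes, and log2 values of CPM a prior count of 2. Alternatives were DESeq2 (1.42.0), RLE factors, limma-voom (3.58.1), other filters, a replicate block, immunoglobulin genes removed, their share as a covariate, left-out pools, and other windows, gene starts and biotypes. DESeq2 with the block and with pools left out was added after seeing the data. The edgeR fit, edgeR with the replicate block and DESeq2 were first tested on simulated counts, and the other alternatives were not.

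The members, the role lists and the alternatives were chosen with earlier results of these data known. Named genes were H2afy, members called by edgeR, its block or DESeq2, the 15 members with the smallest p, the 5 nearest on each side, the 2 with the smallest p of each list and the 5 highest per kb. Others named by level, position or after their values were seen add to these. Of 125 members in 6 role lists, a few matched through a newer symbol.

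The groups use the same replicate numbers, with no meaning stated in the labels. Across genes, deviations from group means correlated between same-numbered pools at r = 0.19, 0.19, 0.36 and 0.41, all over 0.1. The main fit did not pair the pools, and the numbers served as a block in alternative fits only. The part of the immunoglobulin share in these correlations was not tested. The pairing is only a hint from the data, because 2 H2afy_KO pools had a higher r with another number: KO 1 with WT 2 (0.52) and KO 3 with WT 4 (0.45).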

Additional observations from a re-analysis of the deposited data

Results flagged for a closer look

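In 58 groups of 4 pools, 29 genes in 2 groups each, the highest or lowest pool was compared with the others by Dixon's criterion, and 3 groups had a pool far from the rest, where chance gives 2.9 (about 1 in 20). Txndc15 was 8.53 CPM in H2afy_WT 2 and 6.36 to 6.58 CPM in the other H2afy_WT pools. Hnrnpk was 1786 CPM in H2afy_WT 1 and 1678 to 1692 CPM in the others. 1110018J18Rik was 29.2 CPM in H2afy_KO 4 and 15.8 to 17.9 CPM in the other H2afy_KO pools.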

How the results depend on the processing

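No flanking gene passed adjustment in edgeR with all 8 pools, where 13 had an unadjusted p under 0.05, and DESeq2 called 3. Windows of 54 to 58 Mb and of 41 to 71 Mb gave 6 of 38 and 23 of 174 tested genes at that unadjusted p, which 7.58% of all genes met. Leaving out each pool gave 11 to 15 such genes, and 5.15 to 9.96% of all genes. Over all genes, edgeR called 0 with all pools, 0 to 1 with each pool left out (1 without H2afy_KO 4), 2 with a filter of 5 CPM, 3 with the immunoglobulin share as a covariate, 3 without immunoglobulin genes, 16 without a filter and 15 with the replicate block. Limma-voom called 4 and DESeq2 126. The pairing by replicate number brought the adjusted p of H2afy to 0.093, and DESeq2 with that block called 10 flanking genes (3.24% of all genes). DESeq2 called 1 to 5 flanking genes with each pool left out (0.213 to 1.37% of all genes), and 2 without H2afy_KO 3 and 4 (0.863%).

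Of the 28 named flanking genes, 22 kept the direction of their log2 fold change in each alternative fit that tested them and 6 reversed in at least 1. There were 17 such fits for 23 of the genes and 16 for the other 5, which the filter of 5 CPM removed. Dek was -0.03 in limma-voom and -0.13 to 0.13 with a pool left out. Tmed9 was -0.49 without H2afy_KO 3 and 4 and -0.21 to 0.56 with a pool left out. B230219D22Rik was 0.12 and -0.15 to 0.04 in the same settings. Tgfbi was 0.16 with the replicate block and -0.70 to 0.63 with a pool left out. Pcbd2 ranged from -0.22 to 0.08 and Fbxl21 from -0.11 to 0.97 with a pool left out. The cause was not tested. Depth limits the 80 flanking genes that were too low to test.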
